A study of Mus musculus with 14 samples.

Results

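The collagen and laminin chains are the subunits of the extracellular matrix's fibrils and sheets. They were taken here as every gene whose only symbol in the array's annotation is a collagen chain (Col, a number, a, a number) or begins with Lama, Lamb or Lamc and a digit. This rule found 46 of the 12393 genes that the array measures under 1 symbol, covered by 74 probesets. Where a gene had more than 1 probeset, that with the highest 14-array mean stood for it. By class, 9 genes encode fibrillar collagens, 16 encode chains of the basement membrane (10 laminins and 6 type IV collagens), 3 encode type VI collagen and 18 encode other collagens.

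Total RNA of mice was measured on 14 Affymetrix arrays, with 7 arrays labelled control and 7 labelled Hif 2alpha knockdown, whose genotype is given as Hif2alpha deficient and which are called deficient below. All of the mice had a mixed 129 SvJ/C57Bl6 background. The published study behind these arrays concerns lung tumours and asks what loss of HIF-2α does to them, but the labels name no organ, tumour, allele, age or sex, nor which part of Epas1, the gene of HIF-2α, was lost. Nothing says whether the 7 arrays of a group came from separate animals, so p-values measure the spread between arrays.

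A collagen molecule is a triple helix of 3 chains, and a laminin is a cross-shaped trimer of 1 α, 1 β and 1 γ chain. Fibrillar collagens (types I, III and V among others) make the tensile fibrils of connective tissue and are made mainly by fibroblasts. Type IV collagen and laminins build the basement membrane, the thin sheet under epithelia and around vessels and muscle. Type VI collagen forms beaded filaments in the zone between the 2 systems. In the lung, the walls of alveoli hold all of these. HIF-2α is a transcription factor that is stable when oxygen is low, and genes of collagen modification are among those known to respond to low oxygen.

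Alveolar type II markers such as the surfactant genes were high on every array. Their mean log2 level, the scale of all levels below, spanned 13.1 to 13.4 (controls) and 13.0 to 13.4 (deficient). The single Epas1 probeset differed by -0.19 (deficient minus control, SE 0.30, limma adjusted p = 0.807), and which part of the transcript was lost is not given, so it does not check the labels. Each array's description opens with a number. Less its last digit, that number takes 6 values, 2 among controls and 4 among deficient arrays. Among deficient arrays, 1 and 5 share it, 3 and 6 share it, 4 and 7 share it, and deficient 2 has its own. Among controls, 1 and 4 share one value and the other 5 share the second. What it marks is not stated, and no value occurs in both groups, so within-number comparisons of the groups are not possible. A further number in the descriptions runs through all deficient arrays before all controls, and any order it marks cannot be told apart from the group. Deficient 3 and 6 stand apart by low endothelial and alveolar type I markers, and values without them are given below for the classes, lists and named genes whose direction turned or whose value moved most. The gap between 3′ and 5′ control probesets, a measure of RNA quality, spanned 2.52 to 3.52 for controls and 2.53 to 3.08 for deficient arrays (difference -0.07, two-sided exact permutation p = 0.692).

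Of the 46 chains, 24 had a level above 4 in at least 7 of the 14 arrays and were tested. GCRMA, the method that made these levels, sets a background floor, so levels near it are bounds. Of the 22 chains not tested, 18 had no level above 4 on any array, with means from 2.15 to 2.29. They include the cartilage collagens Col2a1, Col9a1, Col9a2, Col9a3, Col10a1, Col11a1 and Col11a2, the epithelial anchoring collagens Col7a1 and Col17a1, the fibrillar chain Col5a3 and the laminins Lama1 and Lamc3. The others of the 18 were Col8a1, Col12a1, Col19a1, Col22a1, Col25a1 and Col26a1. The remaining 4 were above 4 in 1 or 2 arrays, with means of 2.70 for Col20a1, 2.83 for Col4a4, 3.02 for Col14a1 and 3.39 for Col13a1. No fold is given for any of the 22. By class, 5 of 9 fibrillar, 13 of 16 basement membrane, 3 of 3 type VI and 3 of 18 other chains were tested. Chains that passed only because one group was high would differ by that choice, and the counts below are therefore descriptions of 24 chains, not of all 46.

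**Figure D1:**
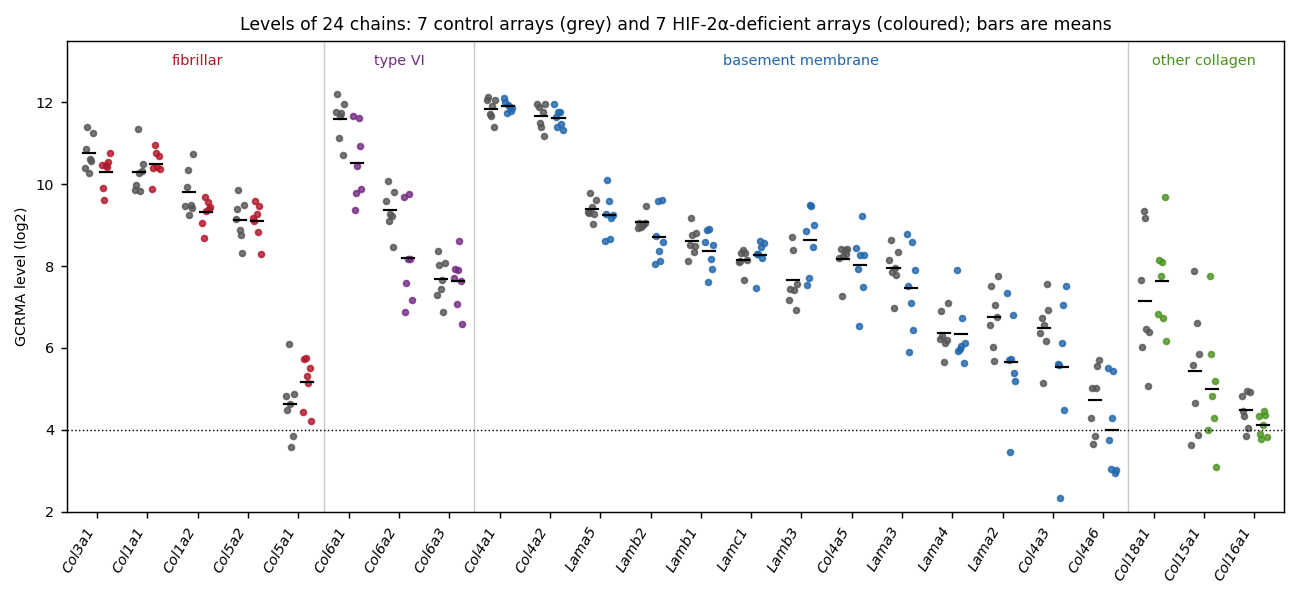
Level (log2, y axis) of each tested chain on every array, with control arrays in grey, deficient arrays in colour by class and group means as bars; the dotted line marks the filter at 4. The groups overlap for every chain, and levels of different chains depend on their probes and are not comparable.

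No chain passed the threshold of a limma adjusted p under 0.05, taken over all probesets tested. Adjusted p-values of the 24 chains ran from 0.210 to 0.987. The background was low as well: 5 of 12701 probesets passed, or 0.0394%, with 2 higher (0.0157%) and 3 lower (0.0236%). At an unadjusted limma p under 0.05 there were 5 of 24 chains (20.8%) against 14.7% of all probesets. One of the 5, Lamb3, was higher in deficient arrays (background for higher, 8.09%), and 4, Col6a1, Col6a2, Lama2 and Col3a1, were lower (background for lower, 6.57%). The groups overlapped for every chain, and 0.496% of all probesets had groups that did not overlap. An exact permutation test that used all 3432 ways to split 14 arrays evenly, with p adjusted over all probesets, called 0 chains and 0 probesets.

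The means of 18 of the 24 chains lay lower in deficient arrays (75.0%), where 47.4% of all probesets did. The median difference was -0.19 over the 24 chains and 0.02 over all probesets. This count depends on which arrays are kept: without deficient 3 and 6, left out after the data were seen, 12 of 24 chains lay lower. Deficient 1 and 5, the highest deficient arrays for basement membrane chains, were kept, and no count without them is given. The share of all probesets without deficient 3 and 6 is not given either. In RNA of mixed cells, fewer cells of a type and less RNA per cell cannot be told apart. The classes differed in where their values lay. The median was -0.02 for the 5 fibrillar chains (2 higher, 3 lower), -0.16 for the 13 basement membrane chains (3 higher, 10 lower), -1.07 for the 3 type VI chains (3 lower) and -0.38 for the 3 other chains (1 higher, 2 lower). Without deficient 3 and 6 the basement membrane median was 0.02 and 5 of 13 chains lay lower, while the type VI median was -1.0 with 2 of 3 lower. Leaving out any 1 array moved the medians over -0.15 to 0.12 (fibrillar), -0.23 to -0.10 (basement membrane), -1.26 to -0.88 (type VI) and -0.48 to -0.04 (other), the last value without control 3. No test of one class against another was made, since chains of a class share arrays and, for some, a locus.

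**Figure D2:**
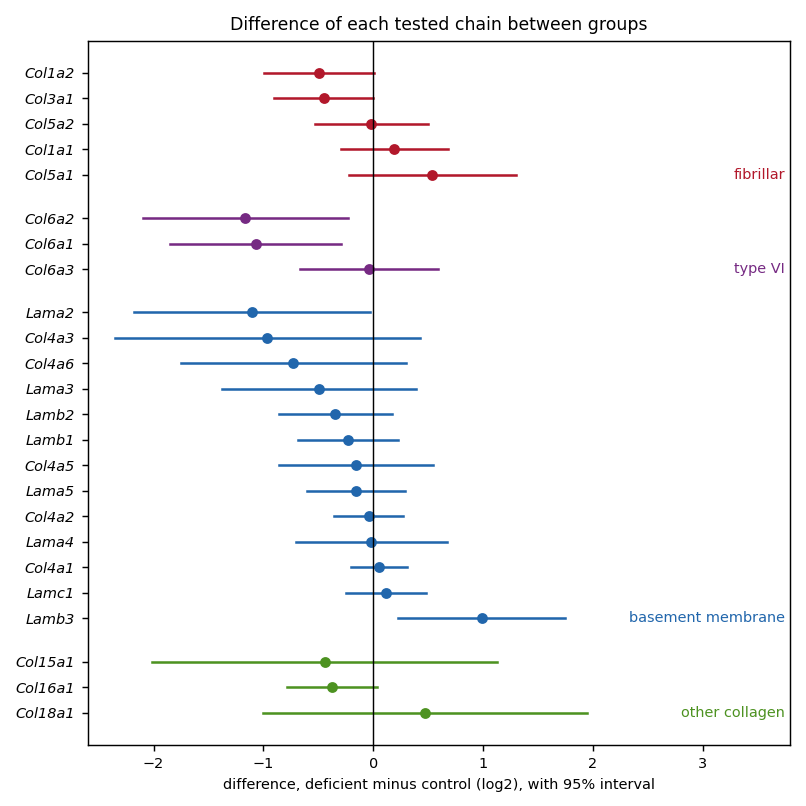
Difference of each tested chain (x axis, log2, deficient minus control) with its 95% interval from limma, ordered by class (y axis). The intervals of Col6a1, Col6a2, Lama2, Lamb3 and Col3a1 leave out 0 before adjustment, and the other 19 include it.

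Type VI collagen is a trimer of the α1, α2 and α3 chains in most tissues, and its 3 genes differed by unlike amounts here. Col6a1, which encodes α1, read 10.71 at the lowest, 11.74 at the median and 12.21 at the highest in controls, and 9.36, 10.44 and 11.65 in deficient arrays. Deficient 2, 3, 4 and 7 lay below every control, while deficient 1, 5 and 6 lay within the control range. The means were 11.59 ± 0.51 and 10.52 ± 0.91 (SD, n = 7 each), a difference of -1.07 (SE 0.36, 95% interval -1.85 to -0.29, limma adjusted p = 0.210), or 2.1-fold lower.

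Col6a2, the α2 chain, read 8.46, 9.27 and 10.08 in controls (lowest, median, highest) and 6.87, 8.16 and 9.75 in deficient arrays. Here 5 deficient arrays lay below every control, and deficient 1 and 5 lay above the control mean. The difference was -1.17 (SE 0.44, 95% interval -2.10 to -0.23, limma adjusted p = 0.247), or 2.24-fold lower, and a second Col6a2 probeset differed by -1.03. Leaving out any 1 array kept Col6a1 between -1.26 and -0.88 and Col6a2 between -1.42 and -0.94, with limma adjusted p-values of 0.112 at the lowest. With arrays weighted by their fit, which called 1900 of 12701 probesets, both passed, at -1.49 (limma adjusted p = 0.00891) and -1.61 (limma adjusted p = 0.0131). Those weights were 0.277 and 0.646 for deficient 1 and 5, the highest deficient arrays for both chains. They were 1.58 and 1.71 for deficient 2 and 4, 0.447 and 0.469 for deficient 3 and 7, and 1.01 for deficient 6. Control 6, the lowest control for both chains, had a weight of 0.567. With the shared number as a random block, the adjusted p of each tested chain was 0.989 or higher.

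Col6a3, which encodes the larger α3 chain, read 6.88, 7.66 and 8.36 in controls and 6.59, 7.72 and 8.61 in deficient arrays. The 2 groups lay over each other, with a difference of -0.04 (SE 0.29, 95% interval -0.66 to 0.59, limma adjusted p = 0.969). That difference turned to 0.04 when arrays were centred on their medians. Its interval reaches down to -0.66, so equal levels are not shown.

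Within an array, Col6a1 and Col6a2 lay about as far apart on average in both groups. The Col6a1 level less the Col6a2 level was 2.23 ± 0.17 in controls and 2.32 ± 0.34 in deficient arrays (SD, n = 7 each). It varied more in deficient arrays, with 2 below every control and 2 above every control. The gaps to Col6a3 were smaller on average in deficient arrays. Col6a1 less Col6a3 was 3.92 ± 0.43 in controls and 2.89 ± 0.79 in deficient arrays, with 4 deficient arrays below every control. Col6a2 less Col6a3 was 1.69 ± 0.37 and 0.56 ± 0.92, with 5 deficient arrays below every control. These gaps are differences between probes, were picked after the values were seen and carry no test. Their changes between groups, -1.03 and -1.13, stayed between -1.36 and -0.79 when any 1 array was left out.

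**Figure D3:**
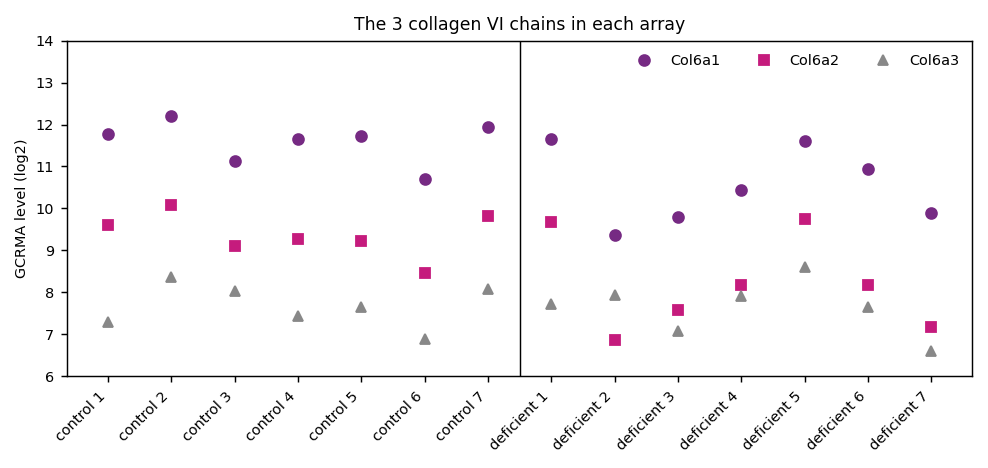
Levels (log2, y axis) of the 3 type VI chains on each of the 14 arrays (x axis), as 1 point for each chain and array. In deficient 2, 3, 4 and 7 the Col6a1 and Col6a2 points lie below all controls, and in deficient 1 and 5 they lie within the control range.

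In the RefSeq annotation, Col6a1 and Col6a2 are neighbours on chromosome 10 with 0 coding genes between them, whereas Col6a3 lies on chromosome 1. Col18a1 is also near, with 2 coding genes between it and Col6a1, and it differed by 0.48 (SE 0.69). The sequences just upstream of the outermost annotated starts of the 3 type VI genes are shown. The mean gap between Col6a1 and Col6a2 was alike in both groups, and their mean gaps to Col6a3 were not. That of Lamb3, the one chain with an unadjusted limma p under 0.05 that lay higher, is shown with them. Each is 250 bases, 5′ to 3′ on the gene's strand, from RefSeq on GRCm38.p6. Capitals mark the core of the hypoxia response element (ACGTG or GCGTG) and the GC box (GGGCGG), searched on both strands.
Col6a1, chr10:76726045-76726294, minus strand: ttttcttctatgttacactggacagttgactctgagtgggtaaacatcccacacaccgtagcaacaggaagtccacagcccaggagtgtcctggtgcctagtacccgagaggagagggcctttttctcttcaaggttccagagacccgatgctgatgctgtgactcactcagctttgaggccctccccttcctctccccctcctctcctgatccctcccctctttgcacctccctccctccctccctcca
Col6a2, chr10:76623631-76623880, minus strand: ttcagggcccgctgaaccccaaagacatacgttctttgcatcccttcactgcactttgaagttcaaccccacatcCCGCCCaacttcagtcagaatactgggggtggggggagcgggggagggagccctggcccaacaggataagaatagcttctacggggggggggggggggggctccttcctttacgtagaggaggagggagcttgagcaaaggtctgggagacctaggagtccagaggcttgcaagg
Col6a3, chr1:90843972-90844221, minus strand: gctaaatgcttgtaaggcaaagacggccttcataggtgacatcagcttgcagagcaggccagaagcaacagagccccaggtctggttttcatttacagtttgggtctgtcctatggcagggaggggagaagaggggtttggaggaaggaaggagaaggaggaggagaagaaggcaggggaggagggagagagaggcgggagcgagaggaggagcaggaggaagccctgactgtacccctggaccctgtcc
Lamb3, chr1:193301744-193301993, plus strand: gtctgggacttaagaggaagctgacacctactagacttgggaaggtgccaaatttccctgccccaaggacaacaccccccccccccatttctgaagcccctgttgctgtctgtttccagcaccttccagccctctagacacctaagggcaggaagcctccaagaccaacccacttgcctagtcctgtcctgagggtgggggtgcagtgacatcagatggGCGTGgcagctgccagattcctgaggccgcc

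The Col6a1 and Col6a3 windows held neither motif. The Col6a2 window held 1 GC box, on the opposite strand, from base -175 to -170 counted from the start. The Lamb3 window held 1 hypoxia core, GCGTG, from base -31 to -27. Such a short core is common: 38.6% of the 27025 RefSeq windows of this length held at least 1, as did 7 of the 18 tested chains with a window (4 of 9 basement membrane, 2 of 3 fibrillar, 1 of 3 other and 0 of 3 type VI chains). The GC box was in 33.0% of all windows and in 10 of these 18. The CCAAT box (CCAAT) was in 34.5% and in 7 of 18, and the TATA box (TATAAA) in 13.0% and in 1 of 18, Col3a1. A match in these letters is a description and not a bound site, and some genes, Lamb3 among them, have further starts outside the window.

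Fibrillar chains lay on both sides of 0. Col3a1, the single chain of type III collagen, which is laid down with type I in elastic tissue, read 10.27, 10.60 and 11.38 in controls (lowest, median, highest) and 9.60, 10.46 and 10.75 in deficient arrays. The 7 deficient arrays all lay below the control mean, and 5 of them within the control range. The difference was -0.45 (SE 0.21, limma adjusted p = 0.339), and a second Col3a1 probeset differed by -0.13.

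Type I collagen, the main fibril former, is built of α1 chains from Col1a1 and α2 chains from Col1a2. Col1a2 read 9.25, 9.49 and 10.73 in controls and 8.69, 9.40 and 9.68 in deficient arrays. Controls 3 and 7 were the highest arrays, and the 7 deficient arrays lay below the control mean. The difference was -0.50 (SE 0.23, limma adjusted p = 0.344). Col1a1 read 9.84, 10.27 and 11.36 in controls and 9.87, 10.42 and 10.96 in deficient arrays, a difference of 0.19 (SE 0.23, limma adjusted p = 0.734) that was 0.06 without deficient 3 and 6. The deficient range of Col1a1 lay wholly inside the control range. The probesets chosen by mean level thus put the 2 chains of one molecule on different sides of 0. The second probeset of each gave -0.40 for Col1a1 and -0.01 for Col1a2, which turns that order round, so the direction of Col1a1 depends on the probeset.

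Type V collagen sits inside type I fibrils and limits their width. Its α1 chain, Col5a1, read 3.57, 4.62 and 6.10 in controls and 4.23, 5.32 and 5.75 in deficient arrays, with the deficient range inside the control range and 2 controls at or under 4. The difference was 0.54 (SE 0.36, limma adjusted p = 0.512), and 0.35 without deficient 3 and 6. Col5a2, the α2 chain, differed by -0.02 (SE 0.24, limma adjusted p = 0.983), with a second probeset at 0.39 and -0.19 without deficient 3 and 6. Control 3 was the highest control for 4 of the 5 fibrillar chains and deficient 3 the highest deficient array for 4 of 5. Col3a1 and Col5a2 are neighbours on chromosome 1 with 0 coding genes between them.

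In the basement membrane, the most common type IV molecule joins 2 α1 chains and 1 α2 chain, from Col4a1 and Col4a2. Col4a1 read 11.40, 11.90 and 12.13 in controls and 11.73, 11.87 and 12.10 in deficient arrays. The deficient range lay inside the control range, with a difference of 0.05 (SE 0.12, 95% interval -0.20 to 0.31, limma adjusted p = 0.873). Col4a2, encoded beside it on chromosome 8, differed by -0.04 (SE 0.15, 95% interval -0.36 to 0.27, limma adjusted p = 0.926). Both signs turned in some alternatives, and both intervals leave out a difference as large as those of Col6a1 and Col6a2.

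The α3, α4 and α5 chains form a second type IV network that is found in alveolar and kidney basement membranes. Col4a3 read 5.14, 6.57 and 7.56 in controls, and 2.33, 5.60 and 7.51 in deficient arrays. Deficient 3, at 2.33, and deficient 6, at 4.48, lay below every control, and the other 5 lay within the control range. The difference of -0.96 (SE 0.65, limma adjusted p = 0.521) was -0.12 without these arrays. Col4a5 read 7.27, 8.29 and 8.43 in controls and 6.54, 8.26 and 9.22 in deficient arrays, a difference of -0.16 (SE 0.33) that was 0.25 without deficient 3 and 6. Col4a4 was not tested, with a mean of 2.83. Col4a6, whose α6 chain pairs with α5 around smooth muscle, read 3.64, 5.03 and 5.69 in controls and 2.94, 3.76 and 5.51 in deficient arrays. It differed by -0.73 (SE 0.48, limma adjusted p = 0.510), with 5 controls and 3 deficient arrays above 4, and by -0.32 without deficient 3 and 6.

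Among laminins, the α3 and β3 chains belong to laminin-332, the trimer that anchors epithelium, whose γ2 chain was not analysed here. Lamb3 read 6.92, 7.44 and 8.70 in controls and 7.53, 8.85 and 9.48 in deficient arrays. Deficient 1, 4, 5 and 7 lay above every control, and deficient 2 alone lay below the control mean. The means were 7.66 ± 0.65 and 8.64 ± 0.78 (SD, n = 7 each), a difference of 0.99 (SE 0.36, 95% interval 0.23 to 1.75, limma adjusted p = 0.230), or 1.98-fold higher. It stayed between 0.85 and 1.17 when any 1 array was left out, was 1.21 without deficient 3 and 6 and passed with array weights at 1.10 (limma adjusted p = 0.0347). That weighted fit called far more probesets than the main one.

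Lama3, its α3 partner, read 6.98, 7.96 and 8.64 in controls and 5.90, 7.52 and 8.79 in deficient arrays. Deficient 3 and 6 lay below every control and deficient 1 above every control. The difference was -0.49 (SE 0.41, limma adjusted p = 0.622), and 0.02 without deficient 3 and 6. The gap of Lama3 less Lamb3 within an array was 0.30 ± 1.01 in controls and -1.18 ± 0.94 in deficient arrays (SD, n = 7 each), with 7 of 7 deficient arrays below the control mean and 3 below every control. As for type VI, this pair was picked after its values were seen, and the change of -1.48 has no test.

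Lama2 encodes the α2 chain of the laminin around muscle and nerve. It read 5.69, 6.75 and 7.77 in controls and 3.46, 5.70 and 7.35 in deficient arrays. Deficient 3, 6 and 7 lay below every control, with deficient 3 the lowest of all arrays, and deficient 1 and 5 lay above the control mean. The difference was -1.10 (SE 0.50, 95% interval -2.18 to -0.03, limma adjusted p = 0.330), or 2.15-fold lower, and -0.61 without deficient 3 and 6. With array weights, which called far more probesets than the main fit, it passed, at -1.49 (limma adjusted p = 0.0179).

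Lamb2, the β2 chain of vessel and nerve-muscle basement membranes, was tight in controls and wide in deficient arrays. It read 8.92, 9.01 and 9.47 in controls and 8.04, 8.59 and 9.60 in deficient arrays. No deficient array fell within the control range: 5 lay below it and deficient 3 and 6 above it. The difference of -0.34 (SE 0.24, limma adjusted p = 0.535) was -0.69 without deficient 3 and 6 (limma adjusted p = 0.0765). As these arrays were the highest for Lamb2, leaving them out had to lower the difference, and that p is no separate support.

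The remaining laminins were Lama4, found in vessels, Lama5, the main α chain of adult epithelia, Lamb1 and Lamc1, the β1 and γ1 chains shared by most laminins. They differed by -0.02 (SE 0.32), -0.16 (SE 0.21), -0.23 (SE 0.21) and 0.12 (SE 0.17) in that order. Their limma adjusted p-values lay between 0.657 and 0.987. Over the 8 tested laminins 6 lay lower and 2 higher, with a median of -0.19, and over the 5 type IV chains 4 lay lower and 1 higher, with a median of -0.16. Without deficient 3 and 6, 3 of 8 laminins (median 0.02) and 2 of 5 type IV chains (median 0.03) lay lower. Among these 4 laminins the sign then turned for Lama4 (0.20) and Lamb1 (0.0075), and Lama5 differed by -0.32.

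Of the 3 other collagens tested, Col16a1, a fibril-associated chain, read 3.85, 4.46 and 4.95 in controls and 3.77, 4.11 and 4.47 in deficient arrays. The 7 deficient arrays lay below the control mean (difference -0.38, SE 0.19, limma adjusted p = 0.382). With array weights, which called far more probesets than the main fit, Col16a1 passed at -0.59 (limma adjusted p = 0.0333). These levels are close to the filter. Col18a1 and Col15a1 encode the basement membrane collagens whose ends release endostatin and a related fragment. Col18a1 read 5.06, 6.46 and 9.35 in controls and 6.18, 7.75 and 9.68 in deficient arrays, a spread within each group wider than the difference of 0.48 (SE 0.69, limma adjusted p = 0.788). It was 0.04 without deficient 3 and 6 and ran from 0.13 without control 6 to 0.84 without control 3 when 1 array was left out. Col15a1 read 3.64, 5.59 and 7.87 in controls and 3.10, 4.82 and 7.76 in deficient arrays (difference -0.44, SE 0.74, limma adjusted p = 0.819). Control 3 and deficient 2 were the highest for Col15a1 in their groups, and the difference was -0.04 without control 3 and -0.90 without deficient 2.

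**Figure D4:**
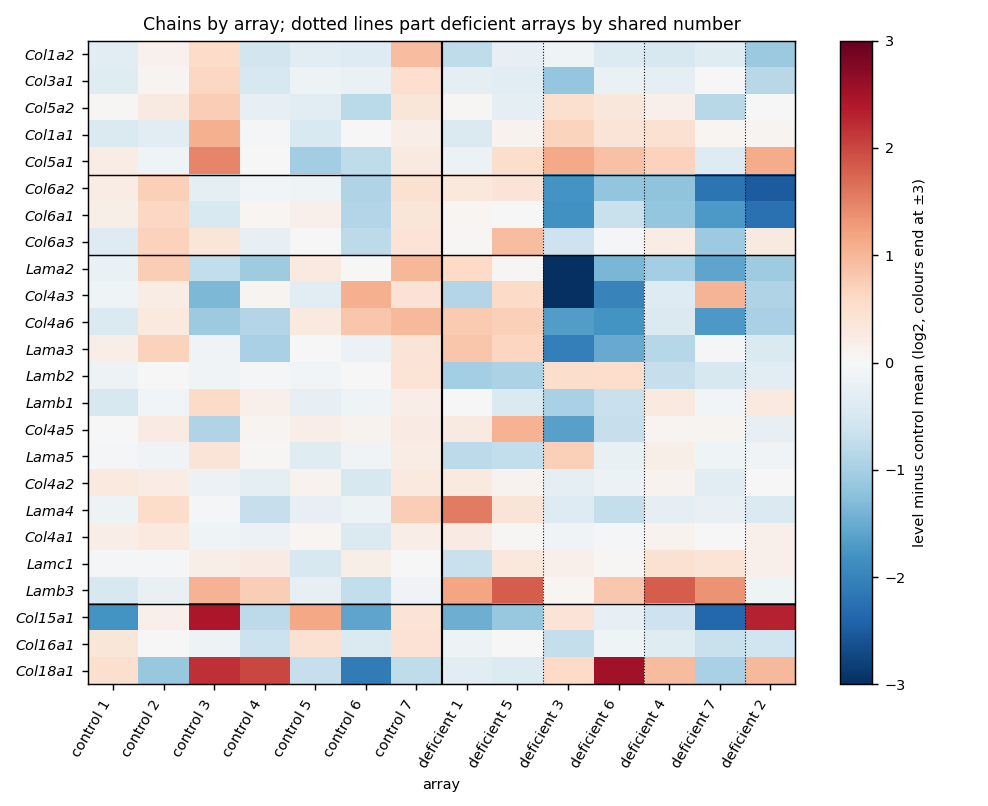
Level of each tested chain (rows, in the order fibrillar, type VI, basement membrane, other, with solid lines between classes) on each array (columns), as the log2 value less the chain's control mean (colour); deficient arrays stand in the order of their shared number, parted by dotted lines. Deficient 3 and 6 are low for Lama2, Col4a3, Col4a6, Lama3 and Col4a5, and the Col6a1 and Col6a2 levels of deficient 1 and 5 are close to the control mean.

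In the deficient group, arrays that share the number in their description lay closer for most of these chains, some of them by little. For 23 of the 24 chains, deficient arrays sharing a number (3 pairs) differed less on average than the other 18 pairs, where 65.1% of all tested probesets did. The mean gap was 0.339 against 0.345 for Col16a1 and 0.101 against 0.870 for Lamb2. For the mean deviation of all 24 chains it was 0.32 against 0.34. In controls this held for 9 of 24 chains, against 61.6% of all probesets. The mean deviation of the 13 basement membrane chains from their own means was 0.30 and 0.39 in deficient 1 and 5, -0.89 and -0.49 in deficient 3 and 6, 0.07 and -0.02 in deficient 4 and 7 and -0.19 in deficient 2. Controls ran from -0.10 to 0.50. The mean deviation of the 3 type VI chains was 0.52 and 0.83 in deficient 1 and 5, -1.02 and -0.25 in deficient 3 and 6, -0.33 and -1.28 in deficient 4 and 7 and -1.11 in deficient 2, and ran from -0.48 to 1.05 in controls. The lowest mean deviations of the basement membrane chains were thus those of deficient 3 and 6. Those of type VI were below 0 in every deficient array but 1 and 5. Single basement membrane chains varied. Among deficient arrays, deficient 3 was lowest for 6 of the 13 and highest for 1, and deficient 6 lowest for 2 and highest for 1. Deficient 1 was lowest for 3 and highest for 6. For Col6a1, the means were 11.63 in deficient 1 and 5, 10.36 in 3 and 6, 10.16 in 4 and 7 and 9.36 in deficient 2.

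Genes that work on or with these chains were read from lists of related genes, and 0 of them passed the threshold. Of 19 tested genes of collagen processing, 5 lay higher and 14 lower, with a median of -0.12. Loxl1, which crosslinks elastic and collagen fibres, read 7.38 in controls and 6.66 in deficient arrays (mean difference -0.72, SE 0.25, limma adjusted p = 0.214). Mia3, which loads collagen into transport vesicles, differed by -0.57 (SE 0.20, limma adjusted p = 0.223). P4hb, the β subunit of prolyl hydroxylase, differed by 0.15 (SE 0.08, limma adjusted p = 0.409). Of 6 tested partners of the basement membrane 2 lay higher and 4 lower, with a median of -0.19: Tinagl1 differed by -0.37 (SE 0.17, limma adjusted p = 0.332), Hspg2, the proteoglycan perlecan, by -0.35 (SE 0.19, limma adjusted p = 0.414) and Sparc, which binds collagen, by -0.03 (SE 0.10). Without deficient 3 and 6, the processing median was -0.25 with 13 of 19 lower, and the partner median was -0.02 with 3 of 6 lower. Hspg2 then differed by -0.13 and Sparc by 0.05.

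Of 10 tested receptors for collagen or laminin 6 lay higher and 4 lower, with a median of 0.04. Itga7, a laminin receptor of muscle, differed by -0.54 (SE 0.34, limma adjusted p = 0.491), Itga6, a laminin receptor of epithelium, by 0.19 (SE 0.13, limma adjusted p = 0.530), and Antxr1, which binds type VI collagen, by 0.10 (SE 0.39), or by 0.61 without deficient 3 and 6. All 9 tested fibril partners lay lower, with a median of -0.29 and none passing. Ogn, a small proteoglycan of fibrils, read 9.35 to 10.60 (controls) and 4.68 to 10.96 (deficient), with a difference of -1.77 (SE 0.84, limma adjusted p = 0.350). Fmod, another, differed by -1.07 (SE 0.55, limma adjusted p = 0.385), and Bgn by -0.09 (SE 0.21). With deficient 3 and 6 left out, 7 of 9 fibril partners lay lower with a median of -0.42, while their mean difference went from -0.68 to -0.30. Ogn then differed by -0.56 and Bgn by 0.07.

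Most markers of cells that make these chains also lay lower in deficient arrays, and their part in the differences was not tested. All 10 tested fibroblast markers of 14 lay lower in deficient arrays (median -0.43, none passing), and the mean level of the 14 spanned 6.17 to 7.19 (controls) and 5.26 to 7.03 (deficient). Without deficient 3 and 6, 7 of these 10 lay lower with a median of -0.39, and their mean difference went from -0.63 to -0.25. The 10 averaged -1.79 and -0.77 in deficient 3 and 6, and 0.79 and 0.58 in deficient 1 and 5, as deviations from their own means. All 12 endothelial markers lay lower (median -0.61, none passing), with mean levels of 7.65 to 8.86 (controls) and 5.97 to 9.09 (deficient). As deviations from their own means, the endothelial markers averaged -2.04 and -1.84 in deficient 3 and 6, and 1.08 and 0.99 in deficient 1 and 5. Of the 12, 5 lay lower without deficient 3 and 6, and the median was then 0.08. Deficient 1 and 5, above every control for these markers, were kept. Of 6 alveolar type I markers 5 lay lower, with averages of -1.45 and -1.30 in deficient 3 and 6, and list levels of 10.6 to 11.2 (controls) and 9.21 to 11.1 (deficient). Without these arrays 3 of 6 lay lower and the median was -0.02. Deficient 3 and 6 were singled out by low endothelial and alveolar type I markers, so a rise of both lists without them follows from that choice. For smooth muscle, 4 of 5 tested markers of 10 lay lower (median -0.37), with mean levels of 4.92 to 6.71 and 4.91 to 5.99. Pericyte markers (3 of 6 tested, 3 lower) had mean levels of 4.22 to 5.07 and 4.07 to 4.77, and 1 of 3 lay lower without deficient 3 and 6.

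Among the marker lists, those of airway cells had the median differences farthest from 0. Of 5 club cell markers 4 lay lower (median -1.64) and of 4 tested ciliated markers 4 lay lower (median -2.51), none passing, with mean levels over each whole list of 10.5 to 13.2 (controls) and 9.44 to 10.7 (deficient) for club cells, and 5.21 to 9.24 and 3.23 to 6.77 for ciliated cells. These medians without deficient 3 and 6 were -1.09 and -2.11. Of 6 macrophage markers 5 lay lower (median -0.60), with mean levels of 8.03 to 9.87 and 7.81 to 9.41. The 1 mesothelial marker tested, Gpm6a, differed by -0.82 (-0.19 without deficient 3 and 6), with mean list levels of 3.24 to 4.81 and 2.97 to 4.71. Of 7 alveolar type II markers 5 lay higher and 2 lower (median 0.03). No marker of cartilage (8) or of basal cells (5) was tested: the mean level was 2.58 to 2.99 (controls) and 2.17 to 2.97 (deficient) for cartilage, and 2.16 to 3.10 and 2.16 to 2.27 for basal cells.

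The deficient arrays had the larger SD for 14 of 24 chains (58.3%), where 69.4% of all tested probesets did. The median SD of the 5 fibrillar chains was 0.53 in controls and 0.40 in deficient arrays, and that of the 13 basement membrane chains was 0.41 and 0.77.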

How the data were processed

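The authors deposited log2 probeset values made with GCRMA, per the submitters' processing notes (version not given in the sources used here). Of 22690 probesets, 64 are controls and 20380 have 1 gene in the platform's annotation, which can be out of date. From these values, differences were fitted in R 4.3.3 with limma 3.58.1 (lmFit, eBayes, two-sided, Benjamini-Hochberg adjustment over 12701 probesets, adjusted p under 0.05) after leaving out controls and probesets not above 4 in at least 7 of 14 arrays. Array number limits precision, and the median SE of a difference was 0.18. The test was tried on simulated data. Members, classes, lists and tests were chosen with earlier results of these data known, and the pairs of chains after their values were seen. The rule for naming took from each class up to 6 tested chains by smallest p plus the one of highest mean, and from each related list 2 by smallest p plus the one of highest mean. Alternatives were filters, normalisation, array weights, blocks, left-out arrays and second probesets. The lists without deficient 3 and 6 were an alternative chosen after seeing the data. All 46 symbols were in the RefSeq gene table. Promoter windows of 250 bases came from RefSeq (GRCm38.p6), where 32 members matched. Levels of different probesets are not compared, except as gaps between pairs of chains within an array, given without a test. Same-numbered arrays of the 2 groups were not taken as pairs.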

Additional observations from a re-analysis of the deposited data

Results flagged for a closer look

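The 24 tested chains were each checked in the 2 groups. In 4 cases the lowest or highest array of a group stood far from the other 6, by Dixon's 95% criterion. Chance meets it in about 5% of groups, and the share over all probesets is not given. The Col4a5 level of control 3 was 7.27, against 8.19 in the next lowest control. The Lamb2 level of control 7 was 9.47, against 9.06 in the next highest control. The Lamc1 level of control 5 was 7.66, against 8.09 in the next lowest control, and that of deficient 1 was 7.47, against 8.19 in the next lowest deficient array. The 3 chains belong to the basement membrane, as do 13 of the 24 tested chains, and none is among those with an unadjusted limma p under 0.05.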

How the results depend on the processing

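No chain passed the threshold in 26 of 28 alternatives. The exceptions were array weights and an unadjusted p under 0.05. Array weights called 5 of 24 chains (Col6a1, Col6a2, Lama2, Lamb3 and Col16a1), beside 1900 of 12701 probesets. An unadjusted limma p under 0.05 called 5 of 24 chains (20.8%), beside 14.7% of all probesets. Of all probesets, 5 passed as reported. The count was 0 with no filter, 9 with a variance trend and robust fit, 1900 with array weights (0.277 for deficient 1 to 4.15 for control 5), 0 with the shared number as a random block (correlation 0.349), 0 averaged over that number, 0 without control 4 and deficient 2 and 4, 32 without deficient 3 and 6, 0 by the exact permutation test and 1863 unadjusted. Leaving out 1 array gave 0 to 85: 0 without deficient 2 or 4, 1 without control 2, 5, 6 or 7, 11 without deficient 1, 13 without deficient 7, 30 without deficient 6 and 85 without control 4.

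With the replicate number as a block, 2 probesets and 0 chains passed. Same-numbered arrays correlated between -0.23 and 0.22 in their deviations, so the numbers were not treated as pairs.

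The median of the other collagens was 0.48 under the stricter filter, which left Col18a1 alone. Directions held in every alternative for 12 of 24 chains. The others, mostly near 0, reversed in 47 of 668 values. Part of these values could not reverse. Filters, the variance trend and robust fit, the replicate block, the exact test and the unadjusted p leave a chain's difference as it is. So does the second probeset where a chain has 1 tested probeset. The reversals were as follows. Lama4 reversed with quantile normalisation (0.034). With arrays centred on their medians, Col4a2 was 0.039, Col5a2 0.064, Col6a3 0.042 and Lama4 0.064. With array weights, Col4a1 was -0.052 and Lama5 0.0019. With the random block, Col5a2 was 0.0026, Col6a3 0.033 and Lama4 0.039. Averaged over the shared number, Col15a1 was 0.29, Col5a2 0.016, Col6a3 0.094 and Lama4 0.057. Without control 4 and deficient 2 and 4, Col4a1 was -0.0072 and Lama4 0.0074. Without deficient 3 and 6, Col4a2 was 0.031, Col4a5 0.25, Col6a3 0.075, Lama3 0.025, Lama4 0.20 and Lamb1 0.0075. With the second probeset, Col1a1 was -0.40, Col5a2 0.39 and Lamc1 -0.18, and the gap of Col1a1 less Col1a2 changed by -0.39 between groups. Leaving out 1 array, ranges that crossed 0 were -0.019 to 0.10 for Col4a1, -0.12 to 0.0086 for Col4a2, -0.36 to 0.092 for Col4a5, -0.15 to 0.12 for Col5a2, -0.20 to 0.14 for Col6a3 and -0.28 to 0.11 for Lama4. The cause was not tested.

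Chains near the array's background have only bounds. With 7 arrays a group, a single array can move a call.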
